A study of Homo sapiens with 2 samples.

Results

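The genes described here are the integrins and the components of focal adhesions, the sites at which a cell holds on to its matrix. They were chosen by gene symbol from a list of 45 genes: 13 integrin alpha chains, 8 integrin beta chains and 24 intracellular components, 5 of them binders of integrin tails, 5 of the ILK-PINCH-parvin group, 3 kinase and docking proteins, 8 actin linkers and 3 zyxin-type LIM proteins. Of the 45 genes, 43 had a named probe, with 74 probes in all, out of 20046 named genes and 47323 probes. FLNA and FLNC had no named probe, and their levels were not analysed here. The rule used gene symbols and no measured value, but the list was chosen with earlier results of these data known.

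An integrin is a pair of one alpha and one beta chain that spans the membrane and binds matrix proteins such as laminin, collagen, fibronectin and vitronectin. Inside the cell, talin and kindlin bind the beta chain's tail and switch the receptor to its binding form. Vinculin, alpha-actinin, filamin and tensin then tie the receptor to actin, while focal adhesion kinase, paxillin and the ILK complex relay signals from it. In Ewing sarcoma, the fusion factor EWSR1-FLI1 is known to hold down adhesion genes, zyxin among them.

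Both samples are A4573, an established Ewing sarcoma cell line, without a fusion genotype or passage number in the labels. The first is the wild-type culture and the second is a radiation-adapted derivative whose description carries 4 Gy, with no schedule of irradiation stated. Each gave total RNA for 1 Illumina bead array, so no difference between the groups has a replicate check and no test between them was possible. The labels do not say whether the adapted derivative is 1 clone or a pool.

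On the arrays, 37.8% of wild-type probes and 35.3% of adapted probes were detected, meaning a detection p of at most 0.01 against the array's own negative controls. All 7 Ewing sarcoma markers were detected on both arrays, CD99 and FLI1 among them, with summed intensities of 25421 (wild-type) and 21185 (adapted). CCND1 alone gave 14496 and 9693 of these sums. After normalisation the markers moved both ways, with LIPI (3.52-fold) and FLI1 (1.76-fold) higher in the adapted array and CCND1 (1.56-fold) lower. Of 7 leukocyte and platelet markers with a probe, LCP1 and CD14 were detected, and PTPRC, the pan-leukocyte marker, was not detected on either array. Of 4 epithelial markers only EPCAM was detected, and of 6 fibroblast markers all but PDGFRA were. Probes of the same gene differed from each other with an SD of 0.28 per probe on the log2 scale over 2326 genes, and 0.33 among dim ones; this is scatter between probes, not between cultures.

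Differences below are normalised log2 intensity in the adapted array minus that in the wild-type array. A gene was measured if at least 1 of its probes was detected on at least 1 array, which held for 34 of the 43 members and for 11296 genes in all. Of the 34, 5 were at least 1.5-fold lower in the adapted array (14.7%) against 12.2% of all measured genes, and 3 were at least 1.5-fold higher (8.82%) against 11.8% of all measured genes. The median member difference was -0.17, beside 0.01 for all measured genes, with quartiles of -0.56 and 0.15. The SD of the member differences was 0.63, as it was for all genes. Of the members, 21 were below 0 (61.8%), against 46.9% of all genes. With median scaling these shares were 44.1% and 35.8%. Of the 34 members, 4 were detected on the wild-type array only and 0 on the adapted array only. A gene detected on the wild-type array only enters with a bound that cannot lie above 0, so the share below 0 depends in part on the detection limit. The shares past 1.5-fold lie near the background of all genes and are no result about the members as a group, although the lower share was 26.5% beside 14.9% in the authors' processed values and 23.5% beside 12.0% with the mean over probes. The 5 lower members were ITGB5, ZYX, ITGB2, ITGA2 and TNS3, and the 3 higher were FERMT1, ITGA4 and PXN.

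**Figure D1:**
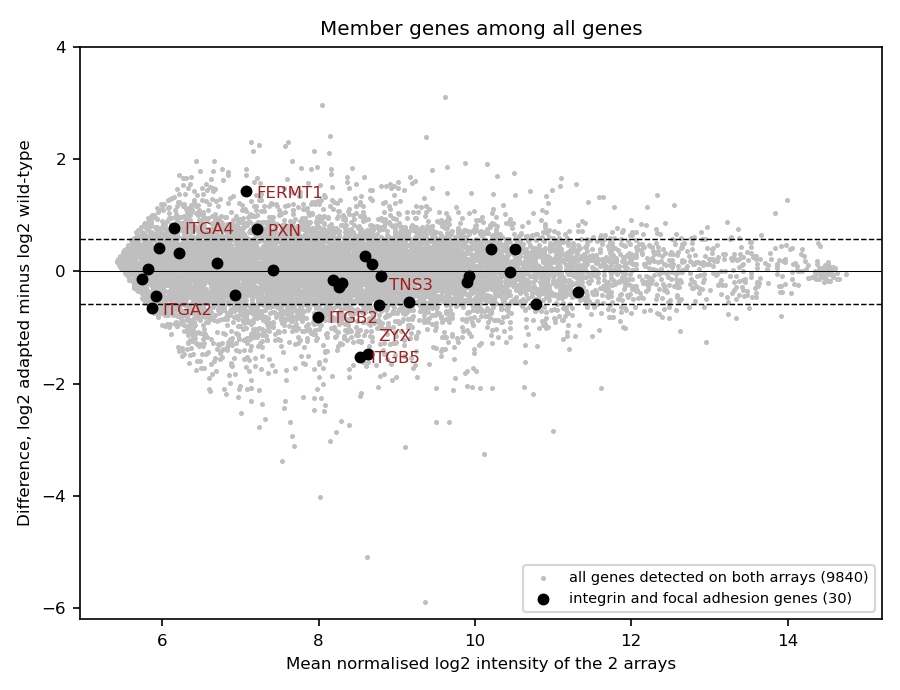
Difference between the arrays (log2 adapted minus log2 wild-type) against mean normalised log2 intensity, for 9840 genes detected on both arrays (grey) and the 30 member genes among them (black). Dashed lines mark 1.5-fold. The 8 labelled members lie outside them, and the other members lie between them. Of the 9840 genes, 11.87% lie past the lower line and 12.15% past the upper line.

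Of the 13 alpha chains, 8 were measured and 5 (ITGA1, ITGA6, ITGA8, ITGA9 and ITGA10) were not detected on either array. Intensities are given as wild-type first and adapted second. ITGA5, which pairs with ITGB1 as the classical fibronectin receptor, read 423.7 and 426.1. After normalisation its log2 levels were 8.41 and 8.19, a difference of -0.21. ITGAV, the alpha chain of the vitronectin receptors, read 396.1 and 407.2, or 8.26 and 8.10 on the log2 scale, a difference of -0.16. Both alpha chains thus lay within the scatter between probes. ITGAE, which pairs with ITGB7 to bind E-cadherin, read 1272 and 1957 and was higher by 0.40 on the log2 scale. ITGA4, which pairs with ITGB1 or ITGB7 and binds VCAM1 and fibronectin, read 166.7 and 207.9. Its log2 levels were 5.77 and 6.54, so it was 1.70-fold higher in the adapted array (0.77), or 0.30 without background correction. ITGA2, a collagen receptor chain, read 184.7 and 159.6, and was 1.58-fold lower (-0.66), or -0.23 without background correction. ITGA2 and ITGA4 were dim, each with 1 probe, and their differences were about 2 times the SD between probes at this brightness.

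The other 3 measured alpha chains passed the detection limit on the wild-type array and not on the adapted one. ITGA3, a laminin receptor chain, read 177.5 against 127.8 and was at least 1.46-fold lower in the adapted array, where its detection p was 0.517. A bound is given because a probe not detected has only an upper limit, here the lowest signal of a detected probe or the probe's own value if higher. ITGA11, a collagen receptor chain, read 171.4 and 153.3 and was at least 1.32-fold lower, and ITGA7, another laminin receptor chain, read 160.4 and 146.1 and was at least 1.07-fold lower. No alpha chain was detected on the adapted array only. Over all 11296 measured genes, 985 were detected on the wild-type array only and 454 on the adapted array only. With a detection p of at most 0.05 the bound of ITGA3 reached -0.91 on the log2 scale.

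Of the 8 beta chains, 4 were measured, and ITGB3, ITGB4, ITGB6 and ITGB8 were not detected on either array. ITGB5, which pairs with ITGAV to bind vitronectin, was the member furthest below its wild-type level. Its brightest probe read 690.7 and 344.8, or 9.29 and 7.77 on the log2 scale, a 2.87-fold lower level (-1.52). A second probe read 543.8 and 273.4 (-1.60), and 1 more, not detected on the adapted array, read 210.2 and 152.3. The 2 remaining ITGB5 probes were not detected on either array. ITGB5 was lower by 1.16 on the log2 scale without background correction, by 1.31 with median scaling and by 1.60 in the authors' processed values. Its alpha partner ITGAV read -0.16, and of the other beta chains known to pair with ITGAV only ITGB1 was detected.

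ITGB1, the beta chain shared by most matrix integrins, had 2 probes detected on both arrays. One read 2742 and 2548, a difference of -0.37, and the other read 728.0 and 588.6, a difference of -0.60. ITGB2, the beta chain of leukocyte integrins, read 422.9 and 316.4 with one probe (-0.82, 1.76-fold lower) and 407.4 and 240.2 with the other (-1.38). ITGB2 was lower by 0.56 without background correction, just under 1.5-fold. None of the 5 alpha chains of blood cells (ITGAL, ITGAM, ITGAX, ITGAD and the platelet chain ITGA2B) was detected on either array, so no detected alpha chain known to pair with ITGB2 stood beside it. LCP1, an actin bundler on the list of leukocyte markers, was lower in the same array (697.8 and 230.3, a difference of -2.49). CD14, the other marker detected, was dim and differed little (165.5 and 159.4, -0.21). The summed intensity of the 2 was 863.3 and 389.7, a fall that lay mostly in LCP1. PTPRC was not detected, and the part of other cells in the ITGB2 result was not tested. In RNA from a whole culture, fewer cells expressing a gene and less RNA per cell cannot be told apart. ITGB7 read 178.0 and 197.2, a difference of 0.32.

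**Figure D2:**
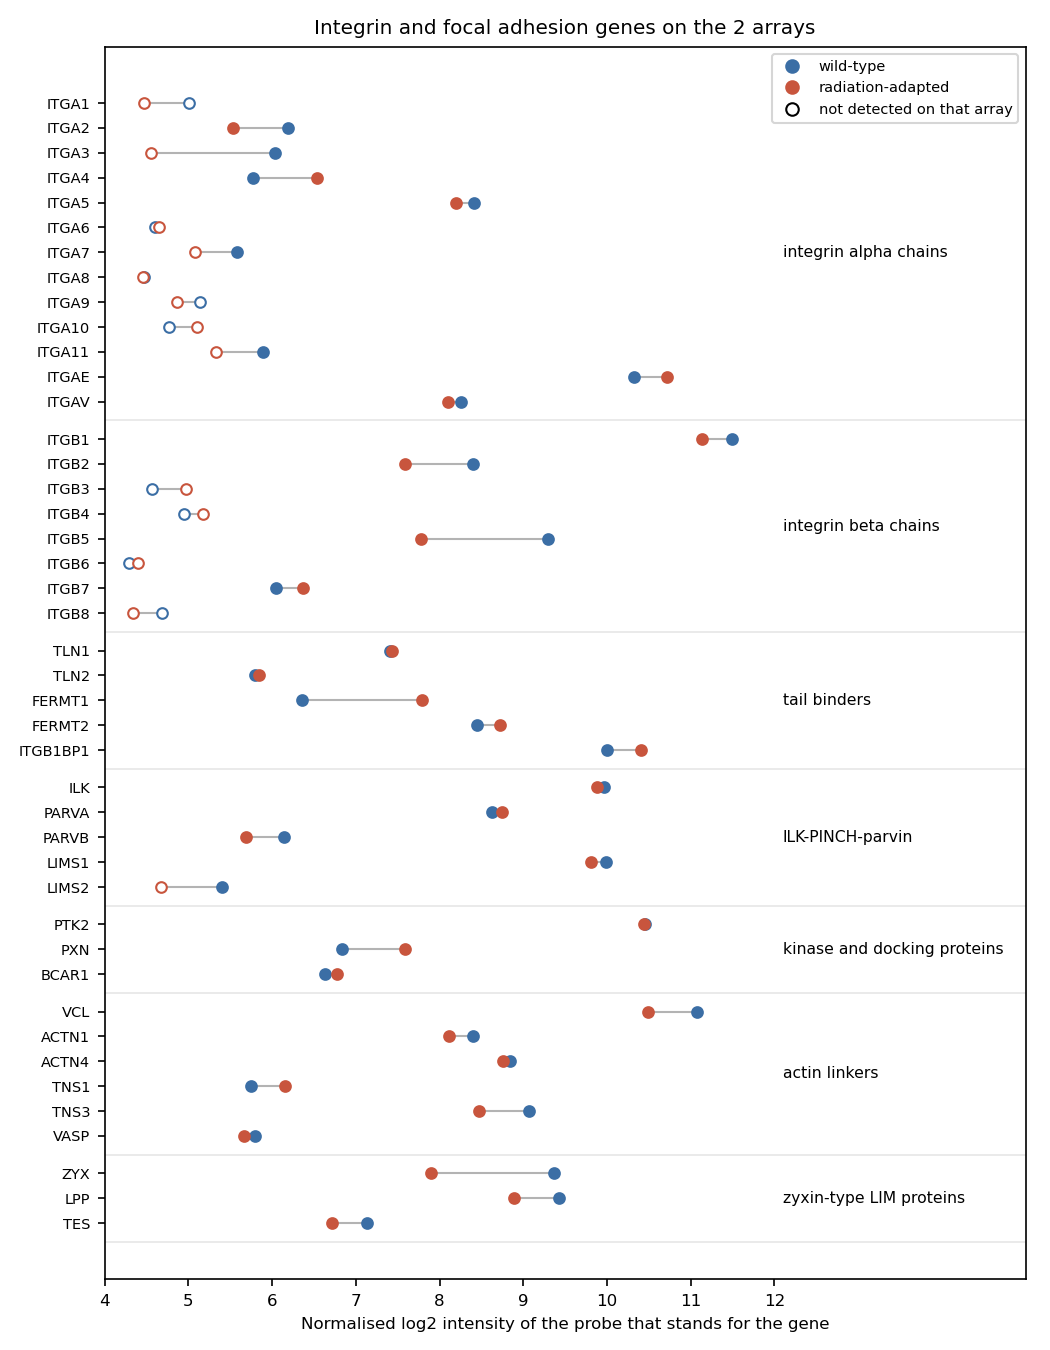
Normalised log2 intensity of each member gene with a named probe in the wild-type (blue) and radiation-adapted (red) array, ordered by role; open circles were not detected on that array. ITGB5, ZYX and FERMT1 show the longest lines among members detected on both arrays; levels of different genes come from different probes and are not to be compared.

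All 5 binders of integrin tails were detected on both arrays, and all 5 read above 0, while 46.9% of all measured genes read below 0. However, TLN2 lay at -0.12 from the median of all genes with median scaling. FERMT1, kindlin-1, is an activator of integrins known mainly from epithelial cells, and it was the member furthest above its wild-type level. It read 193.6 and 346.8, or 6.36 and 7.79 on the log2 scale, a 2.68-fold higher level (1.42). It was higher by 0.77 without background correction and by 1.69 in the authors' processed values, and its value rests on 1 probe. FERMT2, kindlin-2, the widely expressed relative, read 434.9 and 567.7, a difference of 0.27. The talins TLN1 (0.03) and TLN2 (0.04), which link the beta tail to actin, were nearly level between the arrays. ITGB1BP1, which binds the ITGB1 tail and competes with talin, read 1047 and 1590, a difference of 0.40. Of the 5, FERMT1 alone was at least 1.5-fold higher, beside 11.8% of all genes, and none was at least 1.5-fold lower, beside 12.2%. With median scaling ITGB1BP1 (0.67) and ITGAE (0.68) were also past 1.5-fold higher.

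The ILK-PINCH-parvin complex, which joins the beta tail to actin and to signalling, had no member at least 1.5-fold lower, beside 12.2% of all genes, or higher, beside 11.8%. ILK, the scaffold, read 1019 and 1142 (-0.08), and its second probe read 245.3 and 234.0 (-0.25). LIMS1, the main PINCH protein, differed by -0.18 and PARVA, alpha-parvin, by 0.13. LIMS1 has near-identical copies in the genome, and its value is uncertain for that reason. PARVB, beta-parvin, read 182.0 and 165.0, a difference of -0.44. Its second probe, not detected on the adapted array, read 173.3 and 149.0, a difference of -0.76. PARVB was past 1.5-fold lower in the authors' processed values (-0.64) and with the mean over probes (-0.60). LIMS2 read 154.6 and 132.8, was not detected on the adapted array, and its signal was too close to the detection limit to give a fold, though without a detection filter it read -0.73. The 2 probes of PARVA detected on both arrays differed in sign, at 0.13 and -0.06.

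Of the kinase and docking proteins, PTK2, the focal adhesion kinase, was level after normalisation (10.46 and 10.44 on the log2 scale, -0.01). Its 1 probe detected on both arrays read an intensity of 1382 and 1639. PXN, paxillin, a scaffold that PTK2 phosphorylates, read 222.7 and 315.8, or 6.83 and 7.58 on the log2 scale, a 1.68-fold higher level (0.75). Without background correction PXN was higher by 0.43, under 1.5-fold. BCAR1, p130Cas, a docking protein that responds to stretch, read 208.8 and 226.7, a difference of 0.15. So the kinase and its Cas substrate differed by less than the scatter between probes, and paxillin by more.

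Among the actin linkers, 6 were measured, and 5 of them read below 0, beside 46.9% of all measured genes. With median scaling 4 read below 0, beside 35.8% of all measured genes, and ACTN4 read 0.14. VCL, vinculin, which strengthens adhesions under load, read 2090 and 1691, a difference of -0.58, just short of 1.5-fold. Its second probe read 222.3 and 189.1, a difference of -0.60. VCL was just past 1.5-fold lower in the authors' processed values (-0.60) and with the mean over probes (-0.59). TNS3, a tensin, read 609.2 and 496.1 (-0.60, 1.51-fold lower), whereas TNS1, a related tensin, read 165.9 and 185.3 (0.41). TNS3 lay just past 1.5-fold and VCL just short of it, with nearly equal differences. The alpha-actinins ACTN1 (-0.28) and ACTN4 (-0.09), which crosslink actin filaments, and VASP (-0.13), which lengthens them, were nearer to 0. With median scaling TNS3 was under 1.5-fold, at -0.37, and VCL read -0.32.

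The 3 zyxin-type LIM proteins among the members all read lower, beside 46.9% of all measured genes below 0. These proteins sit on tensed actin at adhesions and along stress fibres. AJUBA, a LIM protein of the same family on the list of other adhesome genes, read higher (1.01). TRIP6, another LIM protein on that list, was nearly level (1832 and 2191, a difference of 0.02). ZYX, zyxin, was lower with both of its probes. Its brightest probe read 720.7 and 366.1, or 9.37 and 7.90 on the log2 scale, a 2.77-fold lower level (-1.47). Its second probe read 530.4 and 428.5, a 1.54-fold lower level (-0.62), so the probes differed in the size of the difference. TES, testin, read 247.6 and 220.9 with its brightest probe (-0.43) and 262.9 and 163.8 with the second (-1.64, or 3.11-fold lower). LPP, the zyxin relative, read 745.8 and 621.7 with one probe (-0.55) and 328.3 and 331.8 with the other (-0.15). TES was past 1.5-fold lower when its probes were averaged (-1.03), and LPP was not (-0.35).

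**Figure D3:**
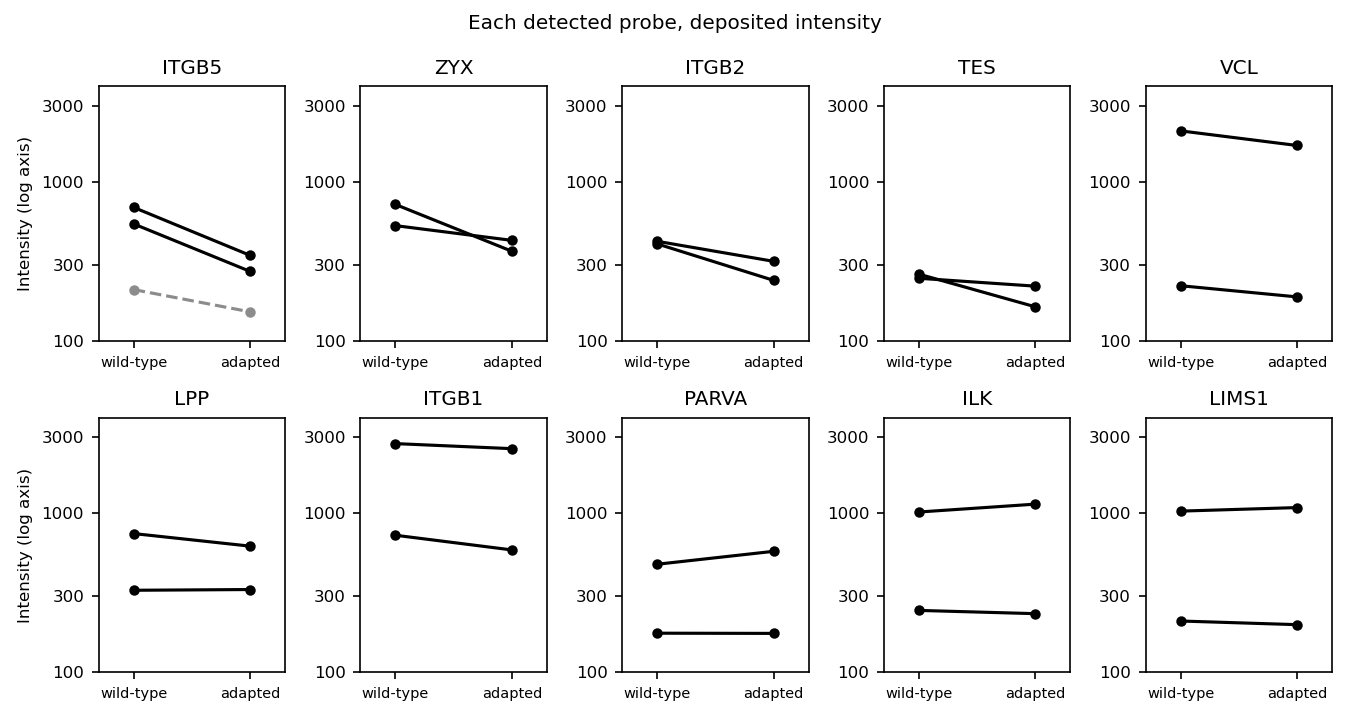
Deposited intensity (log axis) of each detected probe in the wild-type and adapted array, for the 10 members with at least 2 probes detected on both arrays; a grey dashed line was detected on the wild-type array only. Intensity was lower in the adapted array for every drawn probe of ITGB5, ZYX, ITGB2, ITGB1, TES and VCL, while PARVA, ILK, LIMS1 and LPP had probes going either way before normalisation.

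After quantile normalisation the 10 members with at least 2 probes detected on both arrays were lower with all such probes in 9 cases, PARVA being the exception. With median scaling the brightest probes of ILK (0.19) and LIMS1 (0.09) and the second probe of LPP (0.02) read above 0. Over all 2326 genes with 2 such probes, the 2 brightest differed in sign in 579. The share of all genes lower with all such probes was not counted. The probes of a gene also differ in position and can read different transcripts, and which transcript each probe reads was not analysed here. Before normalisation the median intensity over each array's own detected probes was 333 (adapted) and 285.1 (wild-type). These are different sets of probes, 16712 and 17903 in number. Over all probes the medians were 140.2 and 139.4, and the 90th percentiles 686.8 and 604.9. The brightest probes of ITGA5, ITGAV, ILK, LIMS1, ACTN4 and PTK2 read higher in deposited intensity and lower after quantile normalisation. With median scaling of the 2 arrays, the median of all genes moved from 0.01 to 0.17. On that scale 4 members were at least 1.5-fold lower, beside 8.97% of all genes, and 5 higher, beside 19.1% of all genes, and the lower and higher counts over all genes moved from 1378 and 1333 to 1013 and 2156. Taken from the shifted median, the member median was then -0.13, and the same 6 genes read -0.15 (ITGA5), -0.11 (ITGAV), 0.03 (ILK), -0.08 (LIMS1), -0.02 (ACTN4) and 0.11 (PTK2). ITGB5 (-1.48), ZYX (-1.43) and FERMT1 (1.36) lay far from that median on the same scale.

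**Figure D4:**
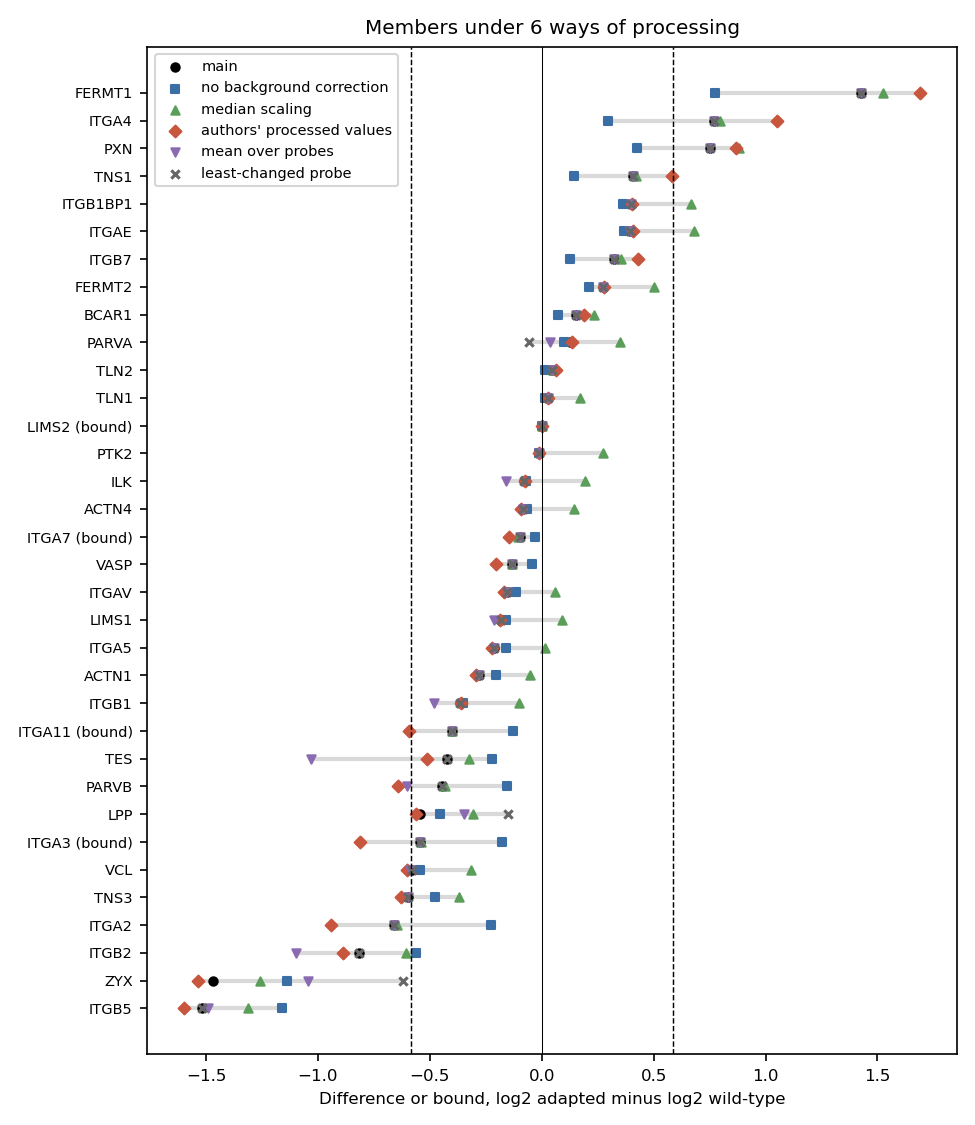
Difference or bound (log2 adapted minus log2 wild-type) of the 34 measured members under 6 ways of processing, with dashed lines at 1.5-fold. ITGB5 lies past the line at the left and FERMT1 past that at the right under all 6, and values without background correction lie closest to 0 for most dim members.

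The other genes of the pathway came from lists of general knowledge which, like the members, were chosen with earlier results of these data known. Of 70 other adhesome genes, 56 were measured, and their median was -0.07. Of these, 11 were at least 1.5-fold lower (19.6%) and 5 at least 1.5-fold higher (8.93%), beside 12.2% and 11.8% of all measured genes. The actin-associated LIM protein CSRP2 read 2016 and 1129, a difference of -1.16, and the LIM protein PDLIM1, read at 348.4 and 140.1, was at least 5.56-fold lower and not detected in the adapted array. Without background correction the bound of PDLIM1 was 2.30-fold. The LIM protein AJUBA (183.4 and 264.0, 1.01), the Rac exchange factor ARHGEF6 (1046 and 2156, 0.87) and the ILK complex partner RSU1 (168.8 and 214.6, 0.80) were higher. SHC1, an adapter for receptor kinases, was lower by 0.89 on the log2 scale. FERMT3, the kindlin known from blood cells, was detected on the adapted array only and was at least 1.33-fold higher.

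Of 22 measured integrin ligands, 12 were at least 1.5-fold lower in the adapted array (54.5%), beside 12.2% of all measured genes. By the same fold 1 ligand was higher (4.55%), beside 11.8% of all measured genes, and the median was -0.84. The collagen VI chains COL6A1 (579.9 and 192.5, -2.69) and COL6A2 (402.1 and 186.8, -2.11), the laminin chain LAMA5 (1891 and 620.1, -2.05) and the collagen chain COL5A1 (1612 and 592.4, -1.90) were furthest below. The matricellular protein CCN2 read 322.2 and 203.8, a difference of -1.33, and CCN1 was at least 2.22-fold lower, or 1.35-fold without background correction. No probe of fibronectin, FN1, or vitronectin, VTN, passed the detection limit on either array. Of 14 measured tetraspanins and other integrin partners, 8 were at least 1.5-fold lower (57.1%, beside 12.2%) and 0 were higher, beside 11.8%. Their median was -0.64. The lower partners included TSPAN4 (790.0 and 411.6, -1.40), the syndecans SDC4 (-1.12) and SDC1 (-0.89), the hyaluronan receptor CD44 (-1.05) and the laminin-integrin partner CD151 (-0.81). Of 23 measured actin and SRF genes, 9 were lower (39.1%, beside 12.2%) and 1 was higher (4.35%, beside 11.8%) by that fold. Their median was -0.22. The lowest were ACTA2 (-1.82), TPM1 (-1.51), TAGLN2 (-1.36), CNN2 (-1.17) and GSN (-1.14). Against these, the members themselves had 14.7% lower and 8.82% higher; the difference between the lists was not tested. Without background correction the counts lower were 7 of 22 ligands, 4 of 14 partners and 6 of 23 actin genes, beside 2 of 34 members and 5.81% of all genes, and 1 of 34 members was then higher, beside 4.24% of all genes. Fibroblast markers moved both ways, with DCN (1.97) and LUM (0.78) higher and THY1 (-1.17) and COL1A1 (-0.74) lower, and their summed intensity was 2845 and 3266.

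**Figure D5:**
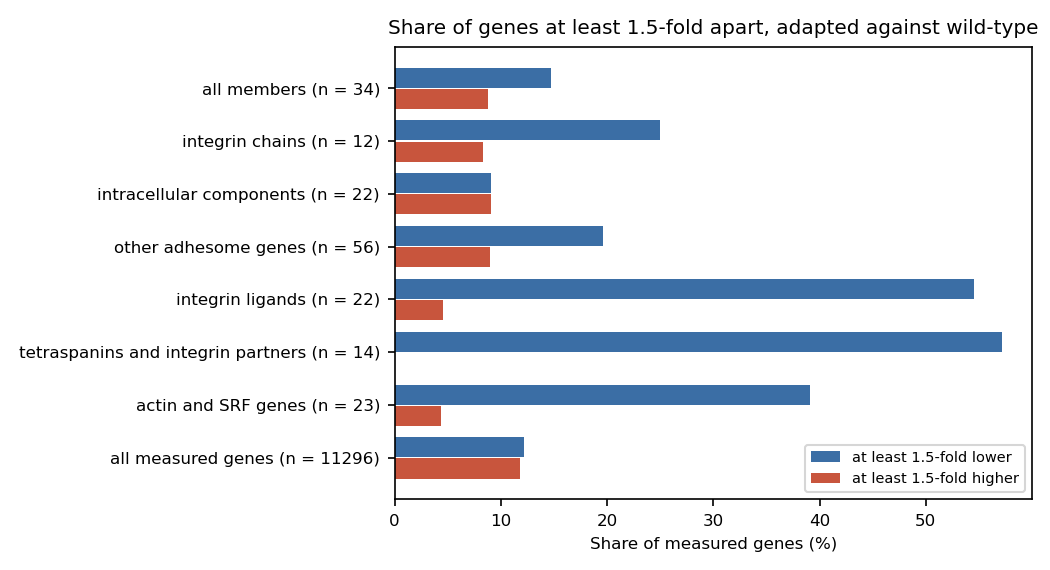
Share of measured genes (%) at least 1.5-fold lower (blue) or higher (red) in the adapted array, for the members, the integrin chains and intracellular components apart, the other adhesion lists and all measured genes. The members lie near all genes in both directions, and the bars for ligands, partners and actin genes are longer on the lower side.

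The sequence just before the start of 4 members that lay past 1.5-fold is shown to place the results beside the promoters: ITGB5 and ZYX, which were lower, and PXN and ITGA4, which were higher. The windows are the 250 bases before the start of the gene in RefSeq on GRCh38.p14, given 5′ to 3′ on the strand of the gene. Capitals mark GGGCGG, the GC box read by Sp1-type factors, searched on both strands. ITGB5 is on the minus strand at chr3:124901419-124901668, ZYX on the plus strand at chr7:143381095-143381344, PXN on the minus strand at chr12:120265731-120265980 and ITGA4 on the plus strand at chr2:181457136-181457385.
ITGB5: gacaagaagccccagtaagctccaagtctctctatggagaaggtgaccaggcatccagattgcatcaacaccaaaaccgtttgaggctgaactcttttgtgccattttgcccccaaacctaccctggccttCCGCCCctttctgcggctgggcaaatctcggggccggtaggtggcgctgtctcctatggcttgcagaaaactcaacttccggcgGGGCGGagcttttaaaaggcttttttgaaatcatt
ZYX: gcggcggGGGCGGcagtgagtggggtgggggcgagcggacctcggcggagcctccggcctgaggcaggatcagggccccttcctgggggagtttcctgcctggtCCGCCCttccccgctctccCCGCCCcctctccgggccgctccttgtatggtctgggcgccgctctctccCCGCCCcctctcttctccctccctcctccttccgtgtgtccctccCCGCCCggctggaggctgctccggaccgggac
PXN: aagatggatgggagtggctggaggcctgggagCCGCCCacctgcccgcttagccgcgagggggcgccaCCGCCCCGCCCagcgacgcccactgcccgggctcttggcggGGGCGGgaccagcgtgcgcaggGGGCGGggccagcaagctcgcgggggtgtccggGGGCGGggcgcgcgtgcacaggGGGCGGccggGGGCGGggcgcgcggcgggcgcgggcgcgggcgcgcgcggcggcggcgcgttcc
ITGA4: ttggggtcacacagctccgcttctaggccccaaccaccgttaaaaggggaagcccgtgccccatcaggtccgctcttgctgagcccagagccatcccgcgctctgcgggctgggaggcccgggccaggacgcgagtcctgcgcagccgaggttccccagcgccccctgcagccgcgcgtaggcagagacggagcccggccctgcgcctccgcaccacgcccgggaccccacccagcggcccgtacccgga

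The GC box occurred 2 times in the ITGB5 window, 5 times in that of ZYX and 8 times in that of PXN, and the ITGA4 window held 0. Of 36 members with a promoter in the RefSeq table, 20 held GGGCGG (55.6%), as did 42.3% of all 27305 promoters. The CArG box of serum response factor was found in 3 of 36 (8.3%), ITGB1BP1, ITGB6 and FLNA, against 1.1% of all promoters. Of the 6 members past 1.5-fold with a promoter in the table, 0 held a CArG box and 4 held GGGCGG (ITGB5, ITGA2, ZYX and PXN, but not ITGA4 or TNS3). GGAATG, the TEAD motif, was found in 5 of 36 (13.9% against 11.9%) and TGANTCA, the AP-1 motif, in 2 of 36 (5.6% against 6.6%). A window of this length without these letters says nothing about what binds the gene.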

How the data were processed

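The data are 2 Illumina bead arrays, 1 of wild-type and 1 of radiation-adapted A4573 cells, grouped by the cell line label. Trizol-extracted RNA was labelled with the Illumina TotalPrep kit, per the labels' protocols. The deposited intensity is the mean signal of a probe, per the file headers, and the p-value deposited beside it is the detection p. The intensity was taken to be before background subtraction because its lowest values were 100 and 101.8. The authors' second table holds intensity values that rank probes like the first (Spearman rho 1.0), with both medians 10.6 and 27.7% below 0; the steps behind it are not stated in the labels or headers.

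Probes took the platform's gene symbol, updated by gene ID to RefSeq (GRCh38.p14): 30113 probes had 1 symbol, 8 several and 17202 none here, and 30074 matched RefSeq. The neqc function (limma 3.58.1, R 4.3.3; offset 16, quantile, log2) normalised the values, on all probes; the offset draws dim differences towards 0. A gene was represented by its probe detected on both arrays where there was one, the brightest otherwise; 9840 genes were detected on both arrays, 985 in wild-type alone, 454 in adapted alone and 17 by different probes. The bound of a gene detected on 1 array sets its level against the other array's lowest detected value, or against the undetected value where that was higher. The depth of an array cannot be stated in reads; the number of arrays limits the precision. No test was run, since each group has 1 array. By the plan all members may be named, and of the other lists the 5 largest differences and any bound of at least 2-fold. The text gives a part of these. Genes named outside that rule include FERMT3, TRIP6, ELMO2, FN1 and VTN. The members and lists were chosen with earlier results of these data known. Steps were tested on simulated data in which only bright genes were changed, by at least 2-fold. Recovery of smaller differences, of changes in dim genes and of the bounds was not tested. Tables were made with pandas 2.3.3 and numpy 2.4.6 in Python 3.11.15, figures with matplotlib 3.10.9. Promoters were taken from RefSeq.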

Additional observations from a re-analysis of the deposited data

How the results depend on the processing

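Of 8 alternatives run, 7 were planned and the use of the least-changed detected probe was chosen after seeing the data. Leaving out probes read from few beads was also planned but could not be run, since the data used here held no bead numbers. No paired analysis was possible because each group has 1 array. Of the 34 measured members, 5 were at least 1.5-fold lower and 3 higher. The lower count was 2 without background correction, 3 with an offset of 50, 9 in the authors' processed values and 8 with the mean over probes, and 4 to 7 under the other alternatives. In the authors' processed values that was 26.5% of the members beside 14.9% of all genes, and with the mean over probes 23.5% beside 12.0%, so in these settings the member share lay further above that of all genes than the 14.7% beside 12.2% reported; no test of the difference was possible. The higher count was 1 without background correction and 5 with median scaling, and 2 or 3 under the others. Over all measured genes the lower count was 1378 and fell to 656 without background correction, and the higher count fell from 1333 to 479, or to 877 with an offset of 50; with median scaling the higher count was 2156. The median of the members was -0.17 and moved to 0.033 with median scaling, where the median of all genes was 0.17, and lay between -0.20 and -0.13 under the others. ITGB5, ZYX and FERMT1 were past 1.5-fold in all 9 ways of processing. Without background correction ITGA2, ITGA4, ITGB2, PXN and TNS3 were not. Members past 1.5-fold lower only under an alternative were ITGA3, ITGA11, PARVB and VCL in the authors' processed values, ITGA3 with a detection p of at most 0.05, ITGA3 and LIMS2 without a detection filter, and PARVB, VCL and TES with the mean over probes; ITGAE and ITGB1BP1 were higher with median scaling. No member past 1.5-fold changed sign; outside the members, ELMO2, an adapter for Rac, turned to 0.16 with its least-changed probe, and the cause was not tested. Dim genes had the widest scatter between probes, an SD of 0.33 against 0.23 for bright ones.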
